A study of Mus musculus with 32 samples.

Results

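Mouse epidermal organoids that had been passaged were compared with organoids still in their first week of culture, in media containing forskolin and a fibroblast growth factor. The comparison used 8 of the 32 libraries of the series. The passaged (early) group held 6 libraries, 4 with forskolin and Fgf10 and 2 with forskolin and Fgf1, from passages 7 to 12, within 3 months in culture. The unpassaged group held 2 libraries, 1 with forskolin and Fgf10 and 1 with forskolin and Fgf1, at passage 0. The groups were chosen from the sample labels alone, and medium was a term in the test. All cells came from skin of strain Bl/6 and were sorted before RNA was extracted, and forskolin was in the medium of all 8 libraries. Organoids were taken 7 days after the last passage in early Fgf10 cultures, and 7 days after culture in unpassaged ones; the labels of the early Fgf1 libraries also give 7 days after culture. Nothing in the labels tells whether replicates are different animals or different cultures, and the p-values cover no more than the spread between these libraries, which may be technical. Each unpassaged medium had 1 library, so no unpassaged culture had a replicate within its medium.

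Epidermis is renewed by basal keratinocytes, which divide on a basement membrane, leave it and differentiate through spinous and granular layers into the cornified layer. Organoids are clusters of such cells grown in 3 dimensions. Forskolin activates adenylyl cyclase and raises cyclic AMP, and Fgf10 and Fgf1 are ligands of FGF receptors, which signal through the ERK kinases. Keratinocytes put into culture turn on genes of wounded epidermis, and cultured cells that go on dividing commonly raise the cell cycle inhibitors encoded by Cdkn2a.

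Transcripts were counted by CEL-seq2, which reads the 3' ends of polyadenylated RNA. Total counts were 1489911 to 2562017 per early library and 1028720 to 1375714 per unpassaged library, with 11889 to 12895 and 11283 to 11827 genes detected. The deposited files fell into 2 sets, each with its own gene list. Replicate 1 of early Fgf10 and of early Fgf1 shared the list of the unpassaged files, and the other 4 early libraries had another list. Early against unpassaged values were therefore also taken from replicates 1 alone. The other set held no unpassaged library, so a fit with the set of files as a term also takes its change from replicates 1. Levels are CPM, a gene's share of all counts scaled up to a fixed total, on a common TMM scale. A change is a log2 fold change, early over unpassaged, from the quasi-likelihood test of edgeR, and p-values were adjusted by Benjamini-Hochberg over 8926 genes.

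The libraries had the markers of keratinocytes. Krt5 and Krt14, the keratin pair of basal cells, were present in every library and did not pass the test. Krt5 had 11350, 13700 and 19790 CPM in early libraries (lowest, median and highest of 6), against 12330 CPM in the unpassaged Fgf10 and 9990 CPM in the unpassaged Fgf1 library (log2 fold change 0.36, SE 0.29, adjusted p = 0.515). Krt14 had 14860, 22950 and 29540 CPM in early libraries (lowest, median and highest of 6), against 18850 CPM in the unpassaged Fgf10 and 18600 CPM in the unpassaged Fgf1 library (log2 fold change 0.28, SE 0.29, adjusted p = 0.631). The groups overlapped for both keratins. Of 28 defining markers of 10 other cell types, 14 had no count in any of the 8 libraries, and the highest value of any was 3.19 CPM in early and 5.48 CPM in unpassaged libraries. Scd1, also listed as a sebaceous marker, was not among the 28. Nor were Sparc of the fibroblast list, at up to 520 CPM in early libraries, and H2-Ab1 of the class II list, at up to 57.1 CPM in unpassaged ones. The 5 genes of the Merkel cell list summed to 0 to 10.3 CPM in early and 0 CPM in unpassaged libraries. The 14 genes of the sebaceous list summed to 249 to 503 CPM in early and 187.5 to 269 CPM in unpassaged libraries, and Cidea of them rose. A count of 0 allows up to 3 counts, which is 1.16 to 2.81 CPM in these libraries. In bulk RNA, fewer cells of a type and less RNA per cell cannot be told apart.

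With passaging, 542 of 8926 genes passed the test (6.07%), 237 of them higher (2.66%) and 305 lower (3.42%) in early organoids. The median log2 fold change of all genes was 0.02, and 245 of the 542 differed over 4-fold. Of the 542 genes, 520 had no overlap between the 6 early and the 2 unpassaged libraries, against 25.2% of all genes tested. A lack of overlap, given below for single genes, thus nearly follows from the call. It was also required of the genes named for the largest changes. Among the genes that rose were 12 of 24 cornified envelope genes, 5 of 16 suprabasal genes, Cdkn2a and the homeobox gene Pitx1. Among those that fell were 6 of 9 MHC class I genes, 7 of 21 glycolysis and hypoxia genes, 4 of 14 genes of FGF and ERK feedback, 5 of 14 matrix genes, Apoe and the bulge gene Dkk3. The calls depend on both unpassaged libraries. Medium stayed a term when 1 of them was left out, here and in the lists below. The early libraries of that library's medium then had no partner. Leaving out the Fgf10 one took the change from 2 early Fgf1 libraries against 1. Leaving out the Fgf1 one took it from 4 early Fgf10 libraries against 1. Without the unpassaged Fgf10 library 27 genes passed, 26 of them among the 542, and without the unpassaged Fgf1 library 225 passed, 199 of them among the 542. Of 70 called genes followed through the alternatives, 55 lost the call without the unpassaged Fgf10 library and 23 without the unpassaged Fgf1 library. In all 20 alternatives 13 kept it: Apoe, B2m, Cav1, Dkk3, Eid1, Espn, Glul, H2-Ab1, Itga7, Klk14, Mmp3, Pitx1 and Serpinb12. Cdkn2a was among those that lost it without the unpassaged Fgf10 library.

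**Figure D1:**
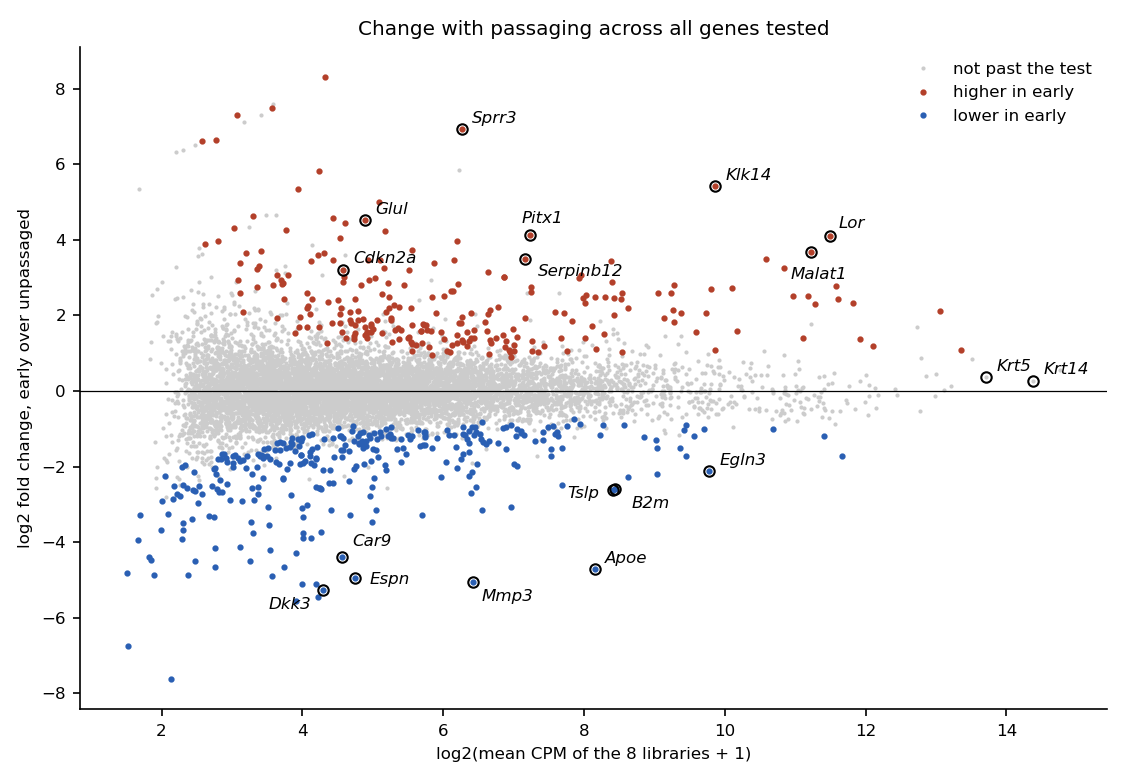
Log2 fold change of early over unpassaged organoids (y axis) against the log2 mean CPM of the 8 libraries plus 1 (x axis), 1 point per gene tested, with 237 genes higher (red) and 305 lower (blue) in early organoids. Klk14 and Lor stand out among abundant genes that rose, Apoe, B2m and Tslp among those that fell, while Krt5 and Krt14 lie near 0.

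Promoters of 2 hypoxia-responsive genes that fell and of 3 genes with opposite changes are shown, since their sequences hold matches to search patterns for factors linked to these groups. Hypoxia-inducible factors bind around ACGTG. For AP-1, a factor active in both differentiating and wounded keratinocytes, the loose pattern TGANTCA was searched, where N is any base. Sequences are RefSeq's for GRCm38.p6, the 250 bases before the start site, written 5' to 3' on the gene's strand, with matches on either strand in capitals. The windows are chr12:54203875-54204124 (minus strand) for Egln3 and chr7:138909507-138909756 (minus) for Bnip3, where 2 matches overlap, 1 on each strand.
Egln3: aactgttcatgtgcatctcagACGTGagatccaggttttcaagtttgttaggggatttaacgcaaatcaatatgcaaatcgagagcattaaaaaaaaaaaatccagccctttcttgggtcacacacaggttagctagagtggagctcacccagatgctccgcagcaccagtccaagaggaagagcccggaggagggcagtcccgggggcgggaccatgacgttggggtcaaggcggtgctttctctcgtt
Bnip3: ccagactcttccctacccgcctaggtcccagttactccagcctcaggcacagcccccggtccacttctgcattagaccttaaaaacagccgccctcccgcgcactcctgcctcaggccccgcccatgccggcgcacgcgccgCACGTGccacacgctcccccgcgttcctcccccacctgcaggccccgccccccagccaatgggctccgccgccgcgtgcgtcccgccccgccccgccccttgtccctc
The match to TGANTCA is in capitals in Lor at chr3:92083143-92083392 (minus), Rptn at chr3:93393449-93393698 (plus) and Mmp3 at chr9:7445572-7445821 (plus). Its middle base is G in Lor and Mmp3 and T in Rptn.
Lor: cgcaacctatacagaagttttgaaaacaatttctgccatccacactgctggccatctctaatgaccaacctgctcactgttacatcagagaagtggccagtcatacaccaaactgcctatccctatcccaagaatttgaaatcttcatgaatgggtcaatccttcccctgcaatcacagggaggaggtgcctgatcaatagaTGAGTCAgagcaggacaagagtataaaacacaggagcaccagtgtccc
Rptn: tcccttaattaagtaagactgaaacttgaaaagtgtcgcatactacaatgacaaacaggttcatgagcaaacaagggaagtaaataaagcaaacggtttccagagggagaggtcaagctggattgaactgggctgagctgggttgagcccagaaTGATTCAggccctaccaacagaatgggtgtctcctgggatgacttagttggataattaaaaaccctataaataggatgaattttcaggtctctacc
Mmp3: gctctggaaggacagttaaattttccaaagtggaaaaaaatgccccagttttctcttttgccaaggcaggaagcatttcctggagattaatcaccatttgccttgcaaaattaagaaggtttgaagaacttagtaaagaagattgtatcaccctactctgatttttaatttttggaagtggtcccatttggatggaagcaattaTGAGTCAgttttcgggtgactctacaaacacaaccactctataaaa
Lor and Rptn rose, whereas Mmp3 fell, and the motif begins 48 bases before the start in Lor and 46 in Mmp3. ACGTG was found in 4 of the 6 hypoxia and glycolysis genes that fell and had a window (Car9, Egln3, Bnip3 and Vegfa), against 26.1% of 6883 tested genes with a window and 18.5% of 27025 genes in the table. TGANTCA was found in 5 of the 15 cornified and suprabasal genes that rose and had a window, against 5.68% of tested genes and 7.82% of the table. It was also found in 2 of 5 wound genes that fell, Mmp13 and Mmp10. These matches describe letters, and binding was not measured.

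Cdkn2a and the homeobox gene Pitx1 were higher after passaging. Cdkn2a encodes the cell cycle inhibitors p16INK4a and p19ARF from separate start sites (chromosome 4, 89274471 to 89294653 in GRCm38), and a count at the shared 3' end cannot tell them apart. Cdkn2a had 21.1, 25.9 and 44.0 CPM in early libraries (lowest, median and highest of 6), against 3.42 CPM in the unpassaged Fgf10 and 2.81 CPM in the unpassaged Fgf1 library. The lowest early library was above both unpassaged ones (log2 fold change 3.21, SE 0.46, adjusted p = 0.0014). Of 21 genes of the p53 and senescence list, 3 rose and none fell, with a median of 0.49. Beside Cdkn2a these were Aen, an apoptosis-enhancing nuclease induced by p53, at 26.9 to 53.8 CPM in early libraries (median 39.1), against 10.9 (Fgf10) and 9.36 CPM (Fgf1) in unpassaged ones, and Trp53inp1, a p53-induced stress protein, at 14.7 to 41.1 CPM in early libraries (median 34.2), against 10.3 (Fgf10) and 10.3 CPM (Fgf1) in unpassaged ones. The changes were 1.89 for Aen (adjusted p = 0.00552) and 1.38 for Trp53inp1 (adjusted p = 0.0389). Their groups did not overlap, as for 8 of the 21 genes of the list, against 25.2% of all genes tested. The call of Trp53inp1 was kept in 10 of 20 alternatives, and was lost with the set of files as a term and with early replicates 1 alone. Cdkn1a, which encodes p21, did not pass at 766 to 1376 CPM in early libraries (median 1063), against 608 (Fgf10) and 843 CPM (Fgf1) in unpassaged ones (log2 fold change 0.45, SE 0.28, adjusted p = 0.384), with overlapping groups. Pitx1, a transcription factor of hindlimb and oral development (chromosome 13, 55825051 to 55836192), had 131, 206 and 264 CPM in early libraries (lowest, median and highest of 6), against 7.53 CPM in the unpassaged Fgf10 and 14.98 CPM in the unpassaged Fgf1 library (log2 fold change 4.12, SE 0.42, adjusted p = 0.000119). Every early library was several times above both unpassaged libraries. Without the unpassaged Fgf10 library none of the 21 p53 genes passed, and without the unpassaged Fgf1 library 2 of them. Of 20 tested homeobox and position genes, Pitx1 alone passed as higher, while Irx1 and Irx5, Iroquois homeobox genes, passed as lower. The change was positive in 13 of the 20. Hoxa9, which did not pass, had 141 counts over early and 1 over unpassaged libraries. That is a ratio of 30.4 with a 95% exact interval of 5.36 to 1208, which covers counting error only. Irx1 had 0.491 to 11.0 CPM in early libraries (median 2.43), against 49.97 (Fgf10) and 59.9 CPM (Fgf1) in unpassaged ones (-3.90), and Irx5 had 134 to 174 CPM in early libraries (median 148), against 275 (Fgf10) and 315 CPM (Fgf1) in unpassaged ones (-0.93). Irx5 lost its call without either unpassaged library, with the set term and with early replicates 1 alone, and Irx1 without the unpassaged Fgf10 library.

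**Figure D2:**
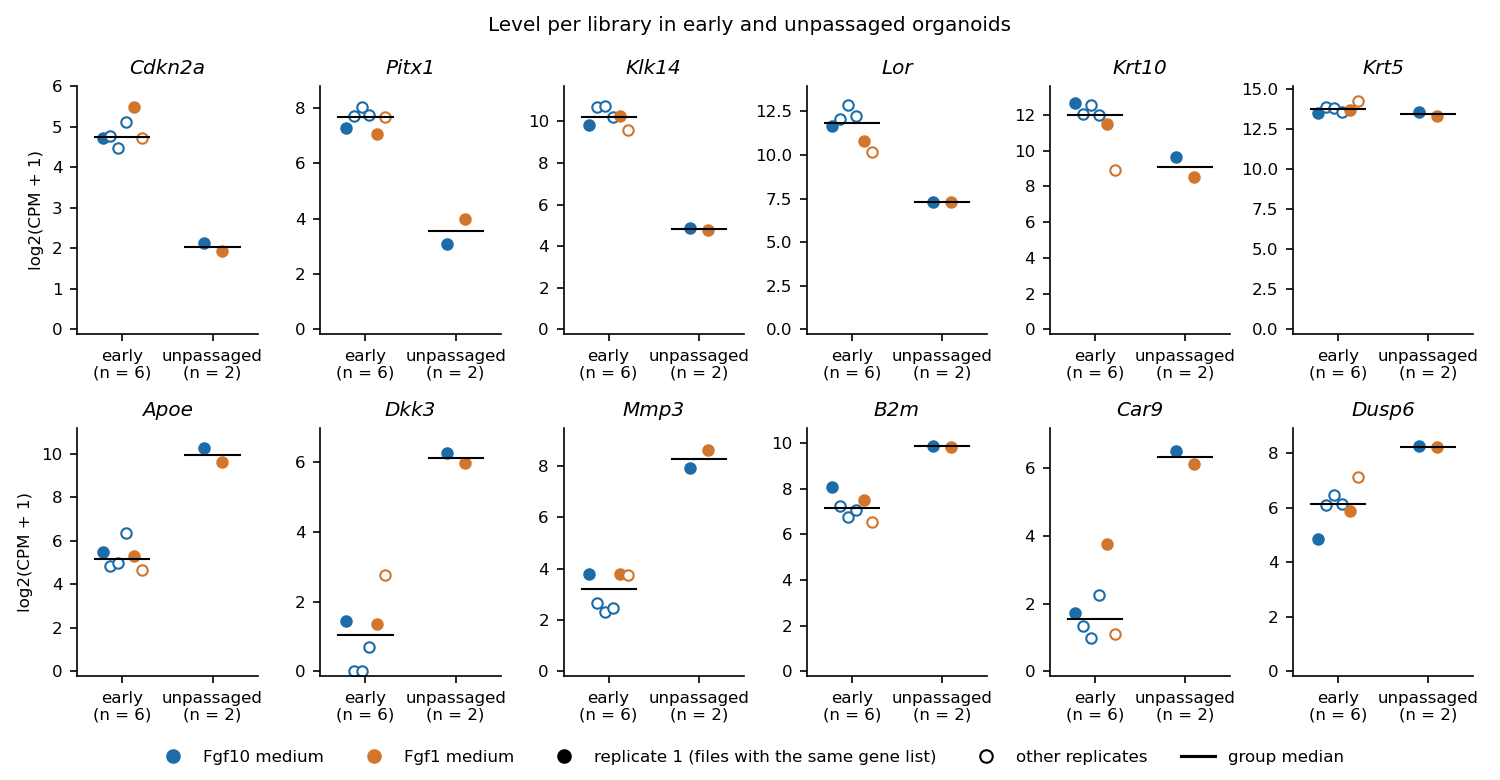
Level of 12 genes as log2(CPM + 1) in each early (left, n = 6) and unpassaged (right, n = 2) library, coloured by medium, with filled points for replicate 1 and a line at the group median. Early and unpassaged libraries are apart for each gene shown except Krt10 and Krt5, where 1 or more early libraries lie among or below the unpassaged ones.

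Division genes gave no call. None of 25 mitosis genes (median 0.11) and none of 24 DNA replication genes (median 0.05) passed edgeR's test, and their medians lay near that of all genes, 0.02. Leaving out the unpassaged Fgf10 library gave a mitosis median of 0.58, and without the unpassaged Fgf1 library it was -0.27. Mki67, a marker of cycling cells, had 14.5, 45.0 and 127 CPM in early libraries (lowest, median and highest of 6), against 43.1 CPM in the unpassaged Fgf10 and 30.9 CPM in the unpassaged Fgf1 library (log2 fold change 0.66, SE 0.61, adjusted p = 0.579). Early libraries lay on both sides of the unpassaged ones, and the value changed sign to -0.76 with early replicates 1 alone and -0.86 with the set of files as a term.

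Part of the genes of the differentiated layers rose with passaging. Of 24 tested cornified envelope genes 12 rose and none fell, with a median of 1.82, and their summed level was 21660 to 74120 CPM in early and 9531 to 15740 CPM in unpassaged libraries. Lor, the main protein of the cornified envelope (chromosome 3, 92080271 to 92083142), had 1151, 3702 and 7539 CPM in early libraries (lowest, median and highest of 6), against 155 CPM in the unpassaged Fgf10 and 155 CPM in the unpassaged Fgf1 library. Its groups did not overlap, which the rule for the largest changes required (log2 fold change 4.10, SE 0.53, adjusted p = 0.00081). Rptn, an envelope protein of the fused S100 family, had 162 to 596 CPM in early libraries (median 445), against 25.3 (Fgf10) and 47.8 CPM (Fgf1) in unpassaged ones (3.43). Cdsn, the adhesive protein corneodesmosin, had 290.0 to 1194 CPM in early libraries (median 796), against 141 (Fgf10) and 153 CPM (Fgf1) in unpassaged ones (2.15). Each of Lor, Rptn and Cdsn was highest in an early Fgf10 library, and early Fgf1 replicate 2 was the lowest early library for each.

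Sprr3, a cross-linked small proline-rich envelope protein, had 1227 counts over the early libraries and 2 over the unpassaged ones. That is a ratio of 132 with a 95% exact interval of 36.5 to 1093, which covers counting error only. In levels Sprr3 had 12.1, 78.5 and 221 CPM in early libraries (lowest, median and highest of 6), against 1.37 CPM in the unpassaged Fgf10 and 0 CPM in the unpassaged Fgf1 library. The fit gave 6.92 (SE 1.34, adjusted p = 0.00843), a value that depends on how so few counts are treated. Sprr2b, of the same family, had 14.7 to 135 CPM in early libraries (median 36.6), against 6.84 (Fgf10) and 0.936 CPM (Fgf1) in unpassaged ones (3.73). The other cornified genes that rose were Sprr1a, Lce3c, Lce1a1, Tgm3, Casp14, Hrnr, Klk5 and Alox12b, at 1.72 to 3.06. Reads of the Sprr2, Sprr1 and Lce families can be shared between near-identical copies, and these genes are uncertain one by one.

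Of 16 suprabasal genes 5 rose and none fell, with a median of 0.60. Krt1, the type II keratin of spinous cells (chromosome 15, 101845426 to 101850794), had 604 to 5531 CPM in early libraries (median 2191), against 184 (Fgf10) and 140.4 CPM (Fgf1) in unpassaged ones (log2 fold change 3.26, SE 0.54, adjusted p = 0.00373). Its partner Krt10 had 488, 4125 and 6355 CPM in early libraries (lowest, median and highest of 6), against 786 CPM in the unpassaged Fgf10 and 374 CPM in the unpassaged Fgf1 library (log2 fold change 2.44, SE 0.55, adjusted p = 0.0194). Early Fgf1 replicate 2, at 488 CPM, lay between the unpassaged libraries, so the groups overlapped for Krt10. Calml3, a calmodulin-like protein of stratified epithelia, rose by 2.89, Sbsn, the secreted protein suprabasin, by 1.59, and Krtdap, a keratinocyte differentiation-associated secreted protein, by 1.19 on the log2 scale. The unpassaged library with forskolin alone, outside the comparison, had Sbsn at 1296 CPM and Cdsn at 561 CPM, both within their early ranges. Lor (223 CPM), Rptn (55.2), Krt1 (92.9), Krt10 (264) and Calml3 (74.7) were below their early ranges there. Without the unpassaged Fgf10 library 1 of 24 cornified genes (median 0.74) and 0 of 16 suprabasal genes passed. Without the unpassaged Fgf1 library, 14 of 24 and 3 of 16 passed. With the 8 libraries of inhibitor media in the same fit (16 libraries), 3 of 24 cornified and 1 of 16 suprabasal genes passed, and Lor, Cdsn, Krt1, Krt10 and Sbsn lost their calls.

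Proteases and protease inhibitors of the outer layers were among the largest rises. Klk14, a kallikrein that cleaves the junctions of shedding corneocytes (chromosome 7, 43690418 to 43695536), had 755, 1195 and 1702 CPM in early libraries (lowest, median and highest of 6), against 28.1 CPM in the unpassaged Fgf10 and 26.2 CPM in the unpassaged Fgf1 library (log2 fold change 5.43, SE 0.43, adjusted p = 1.78e-05). Every early library exceeded both unpassaged ones by far. Klk10, another kallikrein and 1 of 9 upper follicle genes, rose by 2.73, at 1037 to 2216 CPM in early libraries (median 1153), against 170.4 (Fgf10) and 267 CPM (Fgf1) in unpassaged ones. Serpinb12, an intracellular serine protease inhibitor (chromosome 1, 106934449 to 106957080), had 134 to 227 CPM in early libraries (median 187), against 17.8 (Fgf10) and 13.1 CPM (Fgf1) in unpassaged ones (log2 fold change 3.49, SE 0.31, adjusted p = 3.38e-05). Its 6 early values were close to each other and apart from the unpassaged pair. Serpina12, the secreted inhibitor vaspin, had 483 counts over early and 3 over unpassaged libraries, a ratio of 34.7 with a 95% exact interval of 11.8 to 169. Spink12, a Kazal-type inhibitor, had 22.4 to 224 CPM in early libraries (median 61.4), against 6.84 (Fgf10) and 10.3 CPM (Fgf1) in unpassaged ones (log2 fold change 3.48, SE 0.93, adjusted p = 0.0419), with early Fgf10 replicate 4 highest. Its call was kept in 13 of 20 alternatives.

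Other genes with the largest rises had unlike roles. Glul, which encodes glutamine synthetase (chromosome 1, 153899944 to 153909723), had 20.4, 36.3 and 58.7 CPM in early libraries (lowest, median and highest of 6), against 2.74 CPM in the unpassaged Fgf10 and 0 CPM in the unpassaged Fgf1 library (log2 fold change 4.52, SE 0.68, adjusted p = 0.00188). Early and unpassaged values were apart, with 4 counts in all in the unpassaged libraries. Akr1c18, an aldo-keto reductase with close relatives in a gene cluster, had 39.5 to 198 CPM in early libraries (median 56.8), against 2.74 (Fgf10) and 8.43 CPM (Fgf1) in unpassaged ones (3.96). Malat1, a nuclear long noncoding RNA, had 753 to 7322 CPM in early libraries (median 2780), against 219.7 (Fgf10) and 242 CPM (Fgf1) in unpassaged ones (3.67), and 2 early libraries, Fgf10 replicate 2 and Fgf1 replicate 2, were well below the other 4. The symbol Vmn2r55 had 324 to 4633 CPM in early libraries (median 1891), against 196 (Fgf10) and 46.8 CPM (Fgf1) in unpassaged ones (3.495). The unpassaged library with forskolin alone, outside the comparison, had Malat1 at 2352 CPM and Vmn2r55 at 352 CPM, both within the early range. Glul, at 1.82 CPM, and Akr1c18, at 7.89 CPM, were below the early range there. The glycolytic enzyme gene Gapdh was listed at only 9.55 to 25.7 CPM in early and 20.6 to 30.8 CPM in unpassaged libraries. How reads were assigned to these symbols was not tested.

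Some basal adhesion genes fell, while the basal keratins Krt5 and Krt14 did not pass the test. Of 20 basal genes 5 fell and none rose, with a median of -0.54. Cav1, a caveolar coat protein, had 27.0 to 54.3 CPM in early libraries (median 41.1), against 198 (Fgf10) and 208 CPM (Fgf1) in unpassaged ones (log2 fold change -2.24, SE 0.23, adjusted p = 0.000119). Lama3 and Lamb3, laminin chains of the basement membrane, fell by 1.5 and 1.21 on the log2 scale. Itgb1, the beta-1 integrin that anchors basal cells, had 107 to 195 CPM in early libraries (median 155), against 321 (Fgf10) and 334 CPM (Fgf1) in unpassaged ones (-1.08). For each of these genes the groups did not overlap, as for most called genes. Of all 20 basal genes 10 had no overlap, against 25.2% of all genes tested. Leaving out either unpassaged library left 1 basal gene past the test, the set of files as a term left 2 and the fit of 16 libraries 3. Itga6, which pairs with beta-4 integrin in hemidesmosomes (chromosome 2, 71745616 to 71858416), fell as well, at 84.1 to 163 CPM in early libraries (median 119.8), against 327 (Fgf10) and 404 CPM (Fgf1) in unpassaged ones (log2 fold change -1.52, SE 0.25, adjusted p = 0.00327). Itga7, a laminin receptor subunit best known from muscle, had 1.91, 7.82 and 20.1 CPM in early libraries (lowest, median and highest of 6), against 62.3 CPM in the unpassaged Fgf10 and 131 CPM in the unpassaged Fgf1 library (-3.47). Krt15, found in basal and bulge keratinocytes, did not pass, with 11.6 to 214 CPM in early libraries (median 48.7), against 6.84 (Fgf10) and 7.49 CPM (Fgf1) in unpassaged ones (log2 fold change 2.94, SE 0.88, adjusted p = 0.0665), with no overlap between groups.

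Of 14 matrix and basement membrane genes 5 fell (median -1.16), among them Tnc, Lama3, Lamb3 and Col4a2, and of 16 targets of TGF-beta 5 fell (median -0.21), among them Tnc, Tgfbi and Col4a2. Tnc, the wound matrix protein tenascin-C, had 0.637 to 10.1 CPM in early libraries (median 5.50), against 39.0 (Fgf10) and 54.3 CPM (Fgf1) in unpassaged ones (-3.01). Tgfbi, a secreted matrix protein, had 42.8 to 104 CPM in early libraries (median 84.6), against 248 (Fgf10) and 215 CPM (Fgf1) in unpassaged ones (-1.53). The 10 fibroblast markers summed to 30.9 to 522 CPM in early and 340 to 418 CPM in unpassaged libraries, nearly all of it Sparc, and the collagen markers Col1a1, Col1a2 and Col3a1 were at 0 to 1.91 CPM in early and 0 to 5.48 CPM in unpassaged libraries. Dcn, Lum and Thy1 were at 0 in every early library. When the unpassaged Fgf10 library was left out no gene of either list passed, and the median of the TGF-beta targets was 0.045. Without the unpassaged Fgf1 library 2 matrix genes and 4 TGF-beta targets passed. With the set of files as a term 1 matrix gene and 2 TGF-beta targets passed, and with early replicates 1 alone 2 and 4. The part of fibroblasts in the matrix changes was not tested.

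Genes of cultured and wounded keratinocytes moved both ways. Of 21 tested, 8 fell and 2 rose (median -0.50). The matrix metalloproteinases Mmp9 and Mmp13, which degrade collagens, had 0.983 to 16.2 CPM in early libraries (median 5.99), against 49.3 (Fgf10) and 106 CPM (Fgf1) in unpassaged ones for Mmp9 (-3.29), and 2.46 to 13.1 CPM in early libraries (median 6.53), against 28.8 (Fgf10) and 73.96 CPM (Fgf1) in unpassaged ones for Mmp13 (-2.60). Tgfa, an EGF receptor ligand, fell by 2.07 on the log2 scale, whereas Ereg, another EGF receptor ligand, rose by 2.03. Without the unpassaged Fgf10 library none of the wound genes passed, and without the unpassaged Fgf1 library 6 of them, 5 lower and 1 higher. Mmp3, stromelysin 1 (chromosome 9, 7445822 to 7455975), had 3.93, 8.89 and 12.7 CPM in early libraries (lowest, median and highest of 6), against 239 CPM in the unpassaged Fgf10 and 390.4 CPM in the unpassaged Fgf1 library (log2 fold change -5.06, SE 0.30, adjusted p = 1.92e-06). Its highest early value was far below either unpassaged one. In the list of senescence secretory genes, 5 of 14 fell (among them Mmp3, Igfbp4, Mmp13 and Mmp10) and 2 rose, Ccl2 and Cxcl5, which encode chemokines of monocytes and neutrophils. Ccl2 had 397 to 1284 CPM in early libraries (median 542), against 198 (Fgf10) and 144 CPM (Fgf1) in unpassaged ones (1.93), and Cxcl5 had 4.46 to 68.8 CPM in early libraries (median 41.7), against 4.11 (Fgf10) and 3.75 CPM (Fgf1) in unpassaged ones (3.46). Igfbp4, an IGF-binding protein, had 0.491 to 3.96 CPM in early libraries (median 1.79), against 26.0 (Fgf10) and 32.8 CPM (Fgf1) in unpassaged ones (-3.77). Without the unpassaged Fgf10 library 2 secretory genes, 1 each way, passed, and without the unpassaged Fgf1 library 3, all lower. Tslp, a cytokine released by stressed or damaged keratinocytes (chromosome 18, 32815383 to 32819797), had 82.4, 152 and 216 CPM in early libraries (lowest, median and highest of 6), against 921 CPM in the unpassaged Fgf10 and 901 CPM in the unpassaged Fgf1 library (log2 fold change -2.61, SE 0.33, adjusted p = 0.000714), and all 6 early values lay below both unpassaged ones.

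**Figure D3:**
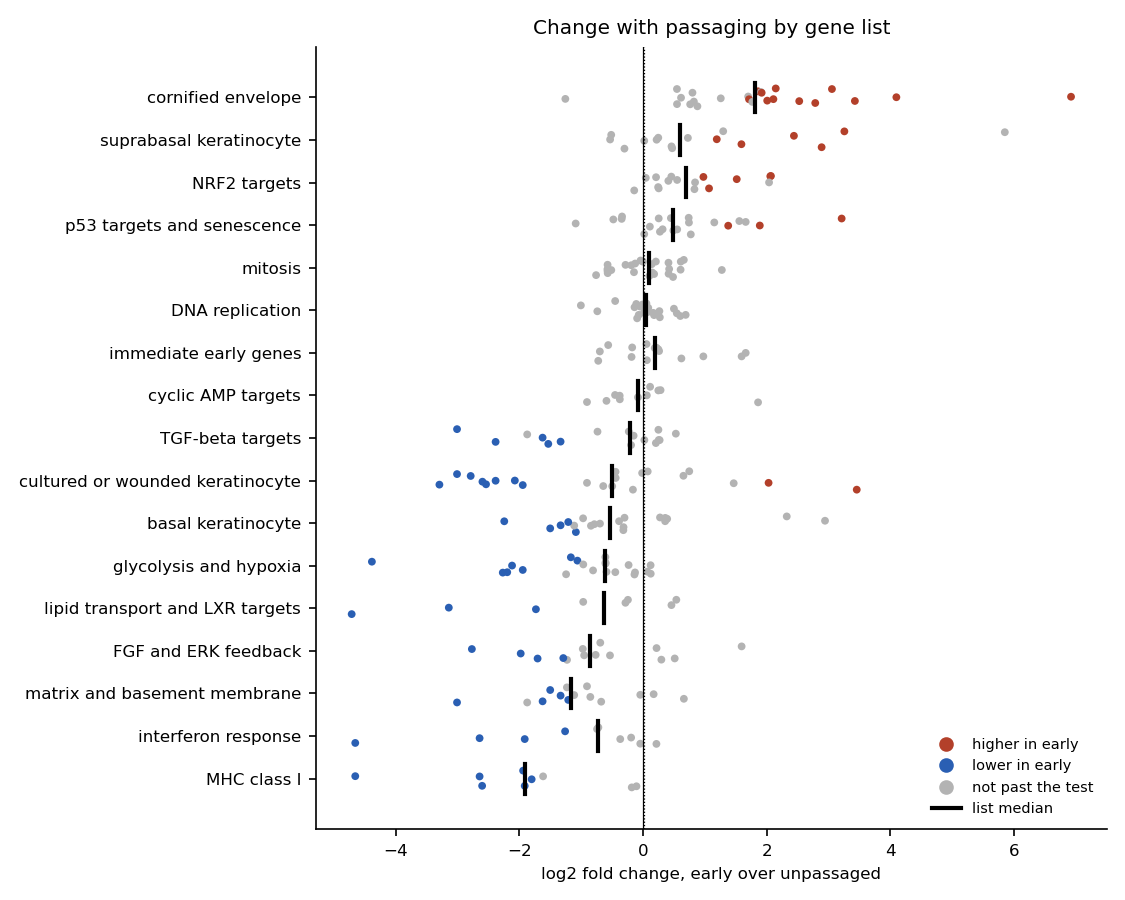
Log2 fold change of early over unpassaged organoids (x axis) for each tested gene of 17 lists (rows), with genes past the test in red (higher) or blue (lower) and a black bar at each list's median; the dotted line is the median of all genes. The cornified envelope list lies to the right with a median of 1.82, MHC class I to the left with -1.91, and mitosis and DNA replication around 0.

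Most tested genes of MHC class I, which displays peptides to T cells, fell with passaging. Of 9 tested, 6 fell and none rose, with a median of -1.91, and their summed level was 414 to 533 CPM in early and 1425 to 1678 CPM in unpassaged libraries. B2m, the invariant light chain (chromosome 2, 122147686 to 122153083), had 92.0, 141 and 270.3 CPM in early libraries (lowest, median and highest of 6), against 940.4 CPM in the unpassaged Fgf10 and 892 CPM in the unpassaged Fgf1 library (log2 fold change -2.60, SE 0.32, adjusted p = 0.000504). No early library reached either unpassaged level. Psmb8 and Psmb9, subunits of the immunoproteasome, had 0 to 3.19 CPM in early libraries (median 1.60), against 59.5 (Fgf10) and 29.0 CPM (Fgf1) in unpassaged ones for Psmb8 (-4.65), and 0.773 to 3.56 CPM in early libraries (median 1.79), against 13.7 (Fgf10) and 11.2 CPM (Fgf1) in unpassaged ones for Psmb9 (-2.64). Tap1 and Tap2, which carry peptides into the endoplasmic reticulum, fell by 1.91 and 1.80 on the log2 scale. H2-K1, a classical heavy chain whose reads can be shared with other class I genes, had 53.8 to 109 CPM in early libraries (median 71.3), against 331 (Fgf10) and 238 CPM (Fgf1) in unpassaged ones (-1.94). Of 10 interferon response genes 4 fell (median -0.73), and 3 of them, Psmb8, Tap1 and Psmb9, are counted in both lists. Leaving out the unpassaged Fgf10 library, 1 class I gene and no interferon gene passed, and leaving out the unpassaged Fgf1 library, 4 and 2. With the set of files as a term 4 class I and 3 interferon genes passed.

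The class II gene H2-Ab1 fell as well, with 0, 1.04 and 5.21 CPM in early libraries (lowest, median and highest of 6), against 52.0 CPM in the unpassaged Fgf10 and 57.1 CPM in the unpassaged Fgf1 library (log2 fold change -5.11, SE 0.56, adjusted p = 0.000181). The other class II gene tested, H2-Eb1, did not pass and lay the other way, with 3.09 to 22.6 CPM in early libraries (median 4.42), against 2.74 (Fgf10) and 0 CPM (Fgf1) in unpassaged ones (log2 fold change 2.23, SE 1.07, adjusted p = 0.26). Across the 10 genes of the Langerhans cell and class II list, summed levels were 3.82 to 24.1 CPM in early and 54.8 to 57.1 CPM in unpassaged libraries, the unpassaged sum being nearly all H2-Ab1. The defining genes H2-Aa and Cd207 were at 0 in all 8 libraries, and Cd74 and Ptprc were at 0 in both unpassaged ones. T cell markers Cd3e and Cd3g were at 0 in all 8.

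Several hypoxia-responsive genes fell with passaging. Of 21 genes of glycolysis and hypoxia 7 fell, none rose and 14 did not pass, with a median of -0.61. Car9, a carbonic anhydrase induced by low oxygen (chromosome 4, 43506966 to 43513729), had 0.983, 1.93 and 12.7 CPM in early libraries (lowest, median and highest of 6), against 89.7 CPM in the unpassaged Fgf10 and 69.3 CPM in the unpassaged Fgf1 library (log2 fold change -4.38, SE 0.54, adjusted p = 0.000575). Egln3, an oxygen-sensing prolyl hydroxylase, had 283 to 646 CPM in early libraries (median 515), against 1936 (Fgf10) and 2228 CPM (Fgf1) in unpassaged ones (log2 fold change -2.12, SE 0.32, adjusted p = 0.00188). Both genes had no overlap between groups. Bnip3, a mitophagy receptor, had 84.5 to 459 CPM in early libraries (median 264), against 1343 (Fgf10) and 1213 CPM (Fgf1) in unpassaged ones (-2.19), and Pdk1, which restrains pyruvate entry into mitochondria, had 29.0 to 52.3 CPM in early libraries (median 38.9), against 88.3 (Fgf10) and 93.6 CPM (Fgf1) in unpassaged ones (-1.17). Pfkp, a phosphofructokinase, Vegfa, the vascular growth factor, and Ndrg1, a stress-induced gene, fell by 1.1, 1.94 and 2.27 on the log2 scale. With the unpassaged Fgf10 library left out none of the 21 passed, and with the unpassaged Fgf1 library left out 3 of them. The set of files as a term left 2 past the test, without Bnip3 and Pdk1, and the fit of 16 libraries 4. Slc16a3, the lactate exporter MCT4, had 0.772 to 9.84 CPM in early Fgf10 libraries and 102 and 42.5 CPM in early Fgf1 libraries, against 124 and 123 CPM in unpassaged Fgf10 and Fgf1 libraries (log2 fold change -3.29, SE 0.71, adjusted p = 0.0154). The early Fgf1 libraries lay nearer to the unpassaged ones, and with early replicates 1 alone it was -1.66 with an adjusted p of 0.217. Mgarp, a mitochondrial protein induced by hypoxia, had 6.88 to 129 CPM in early libraries (median 19.7), against 198 (Fgf10) and 203 CPM (Fgf1) in unpassaged ones (-2.69). Its call was kept in 11 of 20 alternatives and was lost under DESeq2 (adjusted p = 0.0952), with the set term (adjusted p = 0.197) and without either unpassaged library, with changes from -3.60 to -1.79.

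Of 16 targets of NRF2, which governs the response to oxidative stress, 5 rose and none fell, with a median of 0.69. G6pdx, the first enzyme of the pentose phosphate pathway, had 287 to 449 CPM in early libraries (median 382), against 110.2 (Fgf10) and 154 CPM (Fgf1) in unpassaged ones (log2 fold change 1.52, SE 0.28, adjusted p = 0.00678). Slc7a11, the cystine importer, had 45.5 to 120.4 CPM in early libraries (median 62.2), against 17.1 (Fgf10) and 16.9 CPM (Fgf1) in unpassaged ones (2.06), and Hmox1, heme oxygenase 1, had 38.3 to 143 CPM in early libraries (median 108), against 34.9 (Fgf10) and 12.2 CPM (Fgf1) in unpassaged ones (2.07). Pgd, a later enzyme of the pentose phosphate pathway, and Me1, malic enzyme, rose by 0.98 and 1.07 on the log2 scale. Early and unpassaged libraries did not overlap for any of the 5, as for 520 of the 542 called genes. Of all 16 NRF2 targets 6 had no overlap, against 25.2% of all genes tested. The call of Pgd was kept in 13 of 20 alternatives. Leaving out the unpassaged Fgf10 library, none of the 16 NRF2 targets passed, and leaving out the unpassaged Fgf1 library, 2 of them.

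Both groups grew with Fgf10 or Fgf1, and a minority of genes of FGF signalling and its feedback fell. Of 14 genes of the FGF and ERK feedback list 4 fell, none rose and 10 did not pass, with a median of -0.86. Spry2 and Spry1 encode Sprouty proteins, which are induced by receptor tyrosine kinases and damp them. Spry2 had 0.983, 13.3 and 22.2 CPM in early libraries (lowest, median and highest of 6), against 82.8 CPM in the unpassaged Fgf10 and 84.3 CPM in the unpassaged Fgf1 library (log2 fold change -2.77, SE 0.50, adjusted p = 0.0059), and Spry1 had 3.19 to 14.7 CPM in early libraries (median 9.23), against 27.4 (Fgf10) and 34.6 CPM (Fgf1) in unpassaged ones (-1.70). Dusp6, a phosphatase of ERK (chromosome 10, 99263231 to 99267489), had 27.8, 68.6 and 138 CPM in early libraries (lowest, median and highest of 6), against 303 CPM in the unpassaged Fgf10 and 299.6 CPM in the unpassaged Fgf1 library (log2 fold change -1.98, SE 0.36, adjusted p = 0.00605). Fgfbp1, which releases FGFs from the matrix, had 339 to 479 CPM in early libraries (median 371), against 901 (Fgf10) and 960.5 CPM (Fgf1) in unpassaged ones (-1.29). All early values of these 4 genes were below both unpassaged ones. Of all 14 genes of the list 6 had no overlap, against 25.2% of all genes tested. The call of Spry1 was kept in 12 of 20 alternatives. With the unpassaged Fgf10 library left out none of the feedback genes passed, and with the unpassaged Fgf1 library left out 2 of them. None of 11 cyclic AMP targets (median -0.08) and none of 15 immediate early genes (median 0.19) passed edgeR's test.

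Apoe and 2 other genes of lipid transport fell with passaging. Apoe, an apolipoprotein that carries lipid out of cells (chromosome 7, 19696109 to 19699188), had 24.0, 34.7 and 80.3 CPM in early libraries (lowest, median and highest of 6), against 1234 CPM in the unpassaged Fgf10 and 794 CPM in the unpassaged Fgf1 library (log2 fold change -4.71, SE 0.32, adjusted p = 4.89e-06). The highest early value was far below the lower unpassaged one. Apoc1, its neighbour on chromosome 7, had 3.44 to 33.1 CPM in early libraries (median 8.01), against 107 (Fgf10) and 82.4 CPM (Fgf1) in unpassaged ones (-3.14), and Abca1, a lipid efflux pump controlled by LXR receptors, had 4.42 to 18.5 CPM in early libraries (median 9.26), against 31.5 (Fgf10) and 33.7 CPM (Fgf1) in unpassaged ones (-1.73). Together 3 of 8 lipid transport and LXR genes fell and 5 did not pass (median -0.62). Leaving out the unpassaged Fgf10 library, Apoe alone of this list passed, and leaving out the unpassaged Fgf1 library, 2 genes. Espn, an actin-bundling protein, had 0.491 to 5.80 CPM in early libraries (median 2.56), against 91.03 (Fgf10) and 98.3 CPM (Fgf1) in unpassaged ones (log2 fold change -4.95, SE 0.42, adjusted p = 3.31e-05). Lgals1, the lectin galectin 1, had 2.46 to 112 CPM in early libraries (median 26.4), against 278 (Fgf10) and 228 CPM (Fgf1) in unpassaged ones (-3.16), with both early Fgf1 libraries above all early Fgf10 ones. Leaving out the unpassaged Fgf10 library, the change of Lgals1 was -1.37 (adjusted p = 0.676), and the call was also lost under DESeq2 (adjusted p = 0.0879), with no medium term and with the set term. Rarres1, named for induction by retinoids, had 3.48 to 24.9 CPM in early libraries (median 15.02), against 54.8 (Fgf10) and 102 CPM (Fgf1) in unpassaged ones (-2.55).

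Dkk3, a secreted protein related to Wnt antagonists and a marker of the hair follicle bulge (chromosome 7, 112116017 to 112159057), had 0, 1.11 and 5.80 CPM in early libraries (lowest, median and highest of 6), against 76.7 CPM in the unpassaged Fgf10 and 61.8 CPM in the unpassaged Fgf1 library (log2 fold change -5.27, SE 0.55, adjusted p = 0.000138). Among early libraries 2, both Fgf10, had no count, and early Fgf1 replicate 2 was highest. Of 10 bulge genes 2 fell and none rose (median -0.47), the other being Cd34, a surface protein of mouse bulge cells, at 0 to 16.2 CPM in early libraries (median 1.07), against 26.0 (Fgf10) and 64.6 CPM (Fgf1) in unpassaged ones (-3.33). Without the unpassaged Fgf10 library 1 bulge gene passed and the list's median was 0.10. In the Wnt list Wnt7b, a ligand of the canonical pathway, rose, with 123 counts over early and 2 over unpassaged libraries, a ratio of 13.3 with a 95% exact interval of 3.59 to 111. Stra6, a receptor that takes up retinol, rose by 1.47 on the log2 scale. Krt16, 1 of 8 outer root sheath and wound keratins, rose by 1.10 with an adjusted p of 0.0485, close to the threshold, and shares sequence with Krt17 and Krt14. Its call was kept in 8 of 20 alternatives. Krt6a, a wound keratin nearly identical to Krt6b, did not pass (log2 fold change 0.83, SE 0.33, adjusted p = 0.168).

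With early replicates 1 alone, whose files list the same genes as the unpassaged files, 350 of 8321 genes passed (4.21%), 166 higher (1.99%) and 184 lower (2.21%). Of the 542 genes, 288 passed in both. The 4 markers passed here as well. Cdkn2a changed by 3.37 (SE 0.47, adjusted p = 0.00623), Pitx1 by 3.70 (adjusted p = 0.00157), Apoe by -4.58 (adjusted p = 0.000289) and Dkk3 by -5.31 (adjusted p = 0.000808). These are values from edgeR's test with 4 libraries, where leaving out each library in turn gave 148 to 922 genes and upper quartile scaling 831. They share the unpassaged libraries and 2 early ones with the values above. Cornified genes rose in 13 of 24 cases and MHC class I genes fell in 4 of 9. Basal genes then gave 2 rises and 4 falls of 20, and Krt15 passed (2.31, adjusted p = 0.0118). With all 8 libraries and the set of files as a term, 218 genes passed (2.44%), 202 of them among the 542. This change again came from early replicates 1 against the unpassaged pair, so it was no separate check. The other 4 early libraries entered its estimate of spread.

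**Figure D4:**
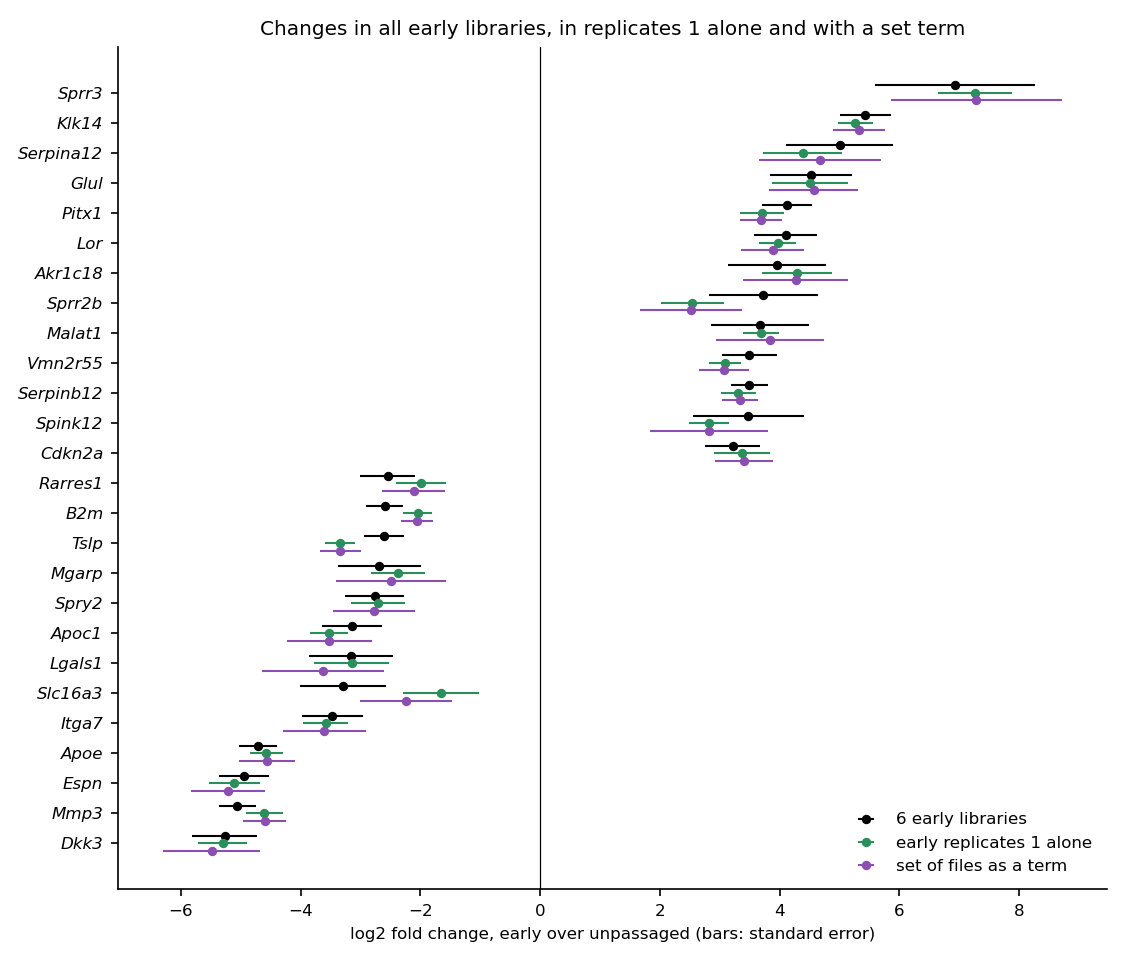
Log2 fold change of early over unpassaged organoids (x axis, bars are standard errors) for the 24 largest named changes with Cdkn2a and Dkk3, from the 6 early libraries (black), from early replicates 1 alone (green) and with the set of files as a term (purple). Each gene keeps its direction in all 3 fits. For the 24 the match with replicates 1 alone was required by the naming rule. The fit with the set term takes its change from the same early replicates 1, so its direction was no further check. Slc16a3 moves most towards 0, to -1.66 with replicates 1 alone.

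Whether the change differed between Fgf10 and Fgf1 media was tested as an interaction. No gene passed of 8926 (0.0%); 349 had an unadjusted p under 0.05 (3.91%), and DESeq2 also called 0. On simulated counts this test recovered 3% of genes changed 4-fold, so differences of that size would mostly be missed. Slc16a3, Lgals1 and Cd34 were lower in all 4 early Fgf10 libraries than in both early Fgf1 ones, with interaction values of -4.21 for Slc16a3, -2.87 for Lgals1 and -2.75 for Cd34 (Fgf10 minus Fgf1, log2), none past the test (adjusted p = 1); they were picked after their values were seen.

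The change in FGF media was set against that in media with an inhibitor of TGF-beta signalling, with or without forskolin (6 early and 2 unpassaged libraries). There the early and unpassaged files come from different sets, so file set and passaging cannot be told apart in inhibitor media. Within inhibitor media 128 of 9109 genes passed (1.41%), 56 higher (0.615%) and 72 lower (0.79%), with Cdkn2a at 3.53 (adjusted p = 0.0201), Pitx1 at 4.03 (adjusted p = 0.0348) and Dkk3 at -4.35 (adjusted p = 0.0201). Between the media 600 of 8890 genes had an unadjusted p under 0.05 (6.75%), and 3 differed after adjustment (0.0337%), all with a lower value in FGF media: Apoe, Tmprss2 and Eid1. Apoe, with the FGF values given above, had 481 to 1121 CPM in early and 639 to 1066 CPM in unpassaged inhibitor libraries. The difference of the changes was -4.36 (SE 0.59, adjusted p = 0.0109). Tmprss2, a membrane serine protease, had 0 to 3.56 CPM in early and 10.3 and 26.2 CPM in unpassaged FGF libraries, and 13.7 to 29.9 CPM in early and 9.39 and 21.3 CPM in unpassaged inhibitor libraries (difference -3.92, SE 0.56, adjusted p = 0.0109). Eid1, an inhibitor of EP300-dependent differentiation, had 36.3 to 55.9 CPM in early and 202 and 201 CPM in unpassaged FGF libraries, and 64.9 to 164 CPM in early and 61.0 and 76.7 CPM in unpassaged inhibitor libraries (difference -2.74, SE 0.45, adjusted p = 0.0447). Leaving out any one of the 4 unpassaged libraries left 0 genes past this test. Medium was a term here too, so each of these fits also lost the early libraries of that medium from the estimate. For Cdkn2a and Pitx1 the difference did not pass, at -0.31 (SE 0.69) and 0.08 (SE 0.94). Cdkn2a had 10.5 to 28.1 CPM in early and 1.25 to 1.96 CPM in unpassaged inhibitor libraries.

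**Figure D5:**
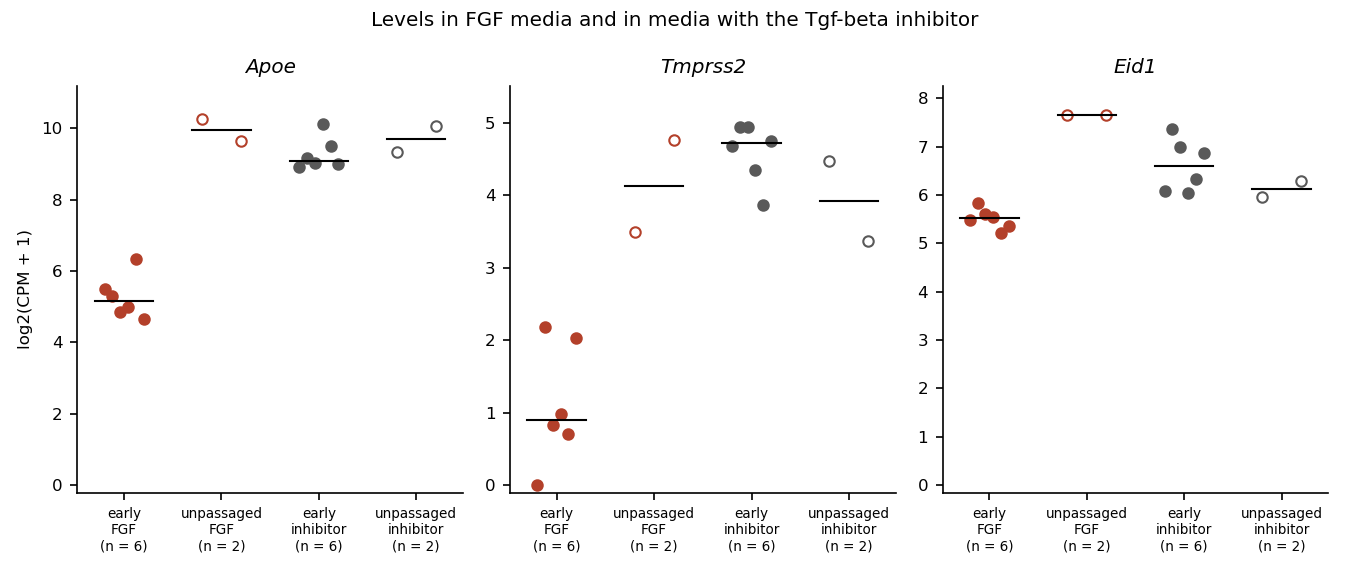
Levels of Apoe, Tmprss2 and Eid1 as log2(CPM + 1) in early and unpassaged libraries of FGF media (red) and of media with the TGF-beta inhibitor (grey), early left of unpassaged, filled for early, with a line at each median. All 6 early FGF libraries lie below both unpassaged FGF libraries for each gene, whereas early and unpassaged inhibitor libraries overlap for Apoe and Tmprss2 and the early ones reach higher for Eid1.

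Levels elsewhere in the series place the 4 marker genes. In 6 late Fgf1 libraries (passages 23 to 30), Cdkn2a had 6.55 to 32.4 CPM, Pitx1 137.7 to 828 CPM, Apoe 3.33 to 12.7 CPM and Dkk3 3.68 to 50.2 CPM. In the unpassaged library with forskolin alone, Cdkn2a had 1.21 CPM, Pitx1 6.07 CPM, Apoe 416 CPM and Dkk3 51.0 CPM. In 3 libraries of sorted interfollicular epidermis, Cdkn2a and Pitx1 had no count, Apoe had 11280 to 15740 CPM and Dkk3 0 to 8.39 CPM. The late and sorted libraries come from other file sets, and no test was made.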

How the data were processed

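CEL-seq2 libraries were sequenced on a NextSeq500, per the labels' protocols. The submitters' processing notes name BWA 0.6.2-r126 and mm10. The read counter, its annotation and its use of strand or molecular identifiers were not given in the sources used here. Raw counts per gene symbol make up the deposited files. Every value in all 32 files was tested and is a whole number of 0 or more; an automated check of units could not split 29 of the files, so for those this test stands alone. A gene missing from a file was taken as 0, and spike-in rows were left out. Reads of overlapping and antisense genes cannot be told apart here. No mitochondrial gene name was listed.

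The 7 pairs of replicates differed by more than sampling noise (chi-square per degree of freedom 11.8 to 26.8), and each library counts as 1 replicate. The test was edgeR 4.0.16 (glmQLFit and glmQLFTest, under R 4.3.3) with medium as a term, on TMM-scaled counts kept by filterByExpr by passaging status (minimum count 10, minimum total 15), at a Benjamini-Hochberg threshold of 0.05. Adjusted p-values of genes are from this test. DESeq2 1.42.0 was an alternative, beside other scalings, filters, thinning, terms and leaving out each library; the fit without early replicates 1 was added after seeing the data. In simulated counts, 200 of 8926 genes were changed. The passaging test recovered 79% of 4-fold and 10% of 2-fold changes and called 10 of the genes left unchanged.

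The 40 lists (599 genes), the members and the rule for named genes were chosen with earlier results of these data known. The rule named the 12 largest changes in each direction (genes passing the test, at or above the median level, without overlap, with the same direction in replicates 1, and no predicted, pseudogene or ribosomal names). It also named up to 4 members of each described list, the 4 markers, 9 fixed keratinocyte genes and up to 3 genes per interaction. Other members named were chosen after their values were seen. Symbols were matched to GENCODE M21 for positions. A few genes of the lists are not reported here by name, and list counts include them.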

Additional observations from a re-analysis of the deposited data

Results flagged for a closer look

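In the group of 4 early Fgf10 libraries, 1 library stood apart from the other 3 for 10 of 76 named genes (Dixon's test at 95%); chance flags about 1 in 20 groups. Replicate 4 was high for Spink12 at 224 CPM (others 22.4 to 46.3), Espn at 5.10 (others 0.491 to 1.16), Lgals1 at 45.2 (others 2.46 to 7.53) and Apoc1 at 33.1 (others 3.44 to 8.10). Replicate 3 was high for Serpina12 at 125 CPM (others 35.3 to 43.2), Slc7a11 at 120.4 (others 61.0 to 63.1) and Tap1 at 15.2 (others 8.10 to 9.26). Replicate 1 was low for Serpinb12 at 158 CPM (others 216 to 227) and high for Mmp3 at 12.7 (others 3.93 to 5.40). Replicate 2 was high for Klk10 at 2216 CPM (others 1037 to 1178).

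The change with passaging differed between FGF media and inhibitor media, by the interaction in edgeR's test, for Apoe (-4.36, adjusted p = 0.0109), Tmprss2 (-3.92, adjusted p = 0.0109) and Eid1 (-2.74, adjusted p = 0.0447). In inhibitor media file set and passaging cannot be told apart.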

How the results depend on the processing

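For passaging, counts of genes past the test stayed within 1.5 times the 542 under both other scalings, DESeq2 (667), a minimum count of 30, thinning, genes listed in every file, 16 libraries of 4 media, no medium term and, added after seeing the data, without early replicates 1 (745). The count was 1027 with no filter, 218 with the set of files as a term, 350 with early replicate 1 alone, and 27 to 622 leaving out each library in turn; a lone unpassaged library is then assumed to vary like the others. With replicates 1 alone the 350 became 587 with RLE scaling, 831 with upper quartile scaling, 209 with DESeq2, 63 with no filter and 148 to 922 leaving out each library. The Fgf10 and Fgf1 interaction gave 27 genes with no filter and 0 to 2 leaving out each early library. The difference between FGF and inhibitor media gave 17 with DESeq2, 108 with no filter, 1 after thinning and 0 to 5 leaving out each library. Without an unpassaged library the passaging fit rested on the other medium alone. With the set term it rested on early replicates 1 against the unpassaged pair. What else shifted these counts was not tested. Of the 70 called genes followed none reversed in 20 alternatives; beside the losses without an unpassaged library given above, 18 with the set term, 14 in the fit of 16 libraries, 12 with no medium term and 9 with replicates 1 alone lost the call. Of genes not called, Cdkn1a (0.45) ranged from -0.045, without the unpassaged Fgf10 library, to 0.932, and Mki67 (0.66) turned to -0.86 with the set term and -0.76 with early replicate 1 alone. No paired analysis was possible because the groups compared share only replicate number 1. At these depths a count of 0 allows up to 2.81 CPM, and for genes of few counts precision is limited by counting error.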
